A study of Mus musculus with 6 samples.

Results

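The Nr4a receptors and 7 further immediate early genes were followed in gastrocnemius, the large calf muscle, of mice lacking lnc-ORA, a long non-coding RNA, and of wild-type mice. They are Nr4a1, Nr4a3, Jun, Junb, Jund, Fos, Egr1, Ier2 and Btg2, taken by their symbols from a deposited table of 11814 genes. Of these 9 genes 7 had a row, and Egr1 and Ier2 were not analysed here. The knockout (KO) group held 3 libraries, replicates 1, 2 and 3, of lnc-ORA KO muscle, in which CRISPR with a pair of guides removed 5147 bp that hold the whole lnc-ORA transcript. The wild-type (WT) group held 3 libraries, replicates 2, 3 and 4. All mice were on the C57BL/6 background and 15 weeks old, and founders were mated with wild-type mice. Whether the libraries are from separate animals is not stated, and the p-values therefore cover only the spread among these 6 libraries, part of which may be technical. The level of lnc-ORA itself was not analysed here, and the genotypes were taken as labelled.

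Immediate early genes are switched on within minutes of a stimulus such as contraction, calcium, cAMP or a growth factor, from factors that are already in the cell. Nr4a1 (Nur77) and Nr4a3 (Nor-1) are orphan nuclear receptors that act without a known hormone, and in rodent muscle beta-adrenergic signalling and exercise induce them. Jun, Junb and Jund pair with each other or with Fos to form AP-1, a leucine zipper factor that binds DNA. Many of these genes carry cAMP response elements, sites for the factor CREB, close to their starts.

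The 250 bases before the annotated start are printed for the members that passed the test below (Nr4a1, Nr4a3 and Jun) and for Btg2 and Fos, because they hold this element in different forms. Sequences are from RefSeq on GRCm38.p6, matched by symbol, run 5′ to 3′ towards the start, and capitals mark the core TGACG on either strand and the form TGACNTCA, which was added to the search after the sequences had been seen.
Nr4a1 (chr15:101266596-101266845, plus strand): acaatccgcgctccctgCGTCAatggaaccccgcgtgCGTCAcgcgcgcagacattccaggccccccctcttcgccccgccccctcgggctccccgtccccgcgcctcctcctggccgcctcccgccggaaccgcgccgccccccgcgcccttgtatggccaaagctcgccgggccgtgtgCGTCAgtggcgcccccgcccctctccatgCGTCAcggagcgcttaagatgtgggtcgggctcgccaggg
Nr4a3 (chr4:48045055-48045304, plus strand): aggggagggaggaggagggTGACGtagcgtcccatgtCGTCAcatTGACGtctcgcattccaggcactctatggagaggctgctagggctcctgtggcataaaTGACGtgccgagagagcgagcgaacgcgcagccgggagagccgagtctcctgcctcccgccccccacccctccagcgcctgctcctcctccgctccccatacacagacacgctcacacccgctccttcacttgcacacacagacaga
Jun (chr4:95052223-95052472, minus strand): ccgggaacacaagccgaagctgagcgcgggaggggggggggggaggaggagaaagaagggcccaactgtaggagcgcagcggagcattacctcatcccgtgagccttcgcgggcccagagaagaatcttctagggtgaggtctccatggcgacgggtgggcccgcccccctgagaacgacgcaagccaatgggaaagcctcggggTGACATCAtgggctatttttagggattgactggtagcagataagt
Btg2 (chr1:134079156-134079405, minus strand): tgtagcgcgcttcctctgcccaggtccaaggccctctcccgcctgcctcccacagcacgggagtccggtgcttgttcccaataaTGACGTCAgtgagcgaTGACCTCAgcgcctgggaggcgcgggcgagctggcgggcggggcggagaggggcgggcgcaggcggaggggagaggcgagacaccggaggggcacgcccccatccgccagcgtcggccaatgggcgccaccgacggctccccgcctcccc
Fos (chr12:85473640-85473889, plus strand): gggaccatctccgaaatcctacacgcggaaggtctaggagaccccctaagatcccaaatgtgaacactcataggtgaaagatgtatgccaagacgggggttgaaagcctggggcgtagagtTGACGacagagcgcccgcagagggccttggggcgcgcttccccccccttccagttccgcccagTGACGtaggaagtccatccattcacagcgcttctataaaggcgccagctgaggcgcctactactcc

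The core TGACG, searched on both strands, occurred 4 times before Nr4a1 and 4 times before Nr4a3. Of all 32851 promoters of the same length, 17.8% held it at least 1 time and 0.137% at least 4 times. Nr4a2, the third Nr4a receptor, also had 4 cores. Fos had 2 and Junb 1, and Jund had none. Btg2 held the complete element TGACGTCA, which 1.55% of promoters hold and which contains the core on both strands. No core was found before Jun, which held 1 match to TGACNTCA, a form found in 7.49% of promoters. The Egr element GCGNGGGCG matched 1 time each before Nr4a1 and Btg2 (4.7% of promoters) and TATAAA 1 time before Fos (12.4%). None of the 7 members had a match to the AP-1 element TGANTCA (6.75% of promoters) or the Nr4a monomer element AAAGGTCA (1.34%). The CArG box of the factor SRF (1.47%) had no match either. Only these 250 bases were searched, and sites further upstream would be missed.

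**Figure D1:**
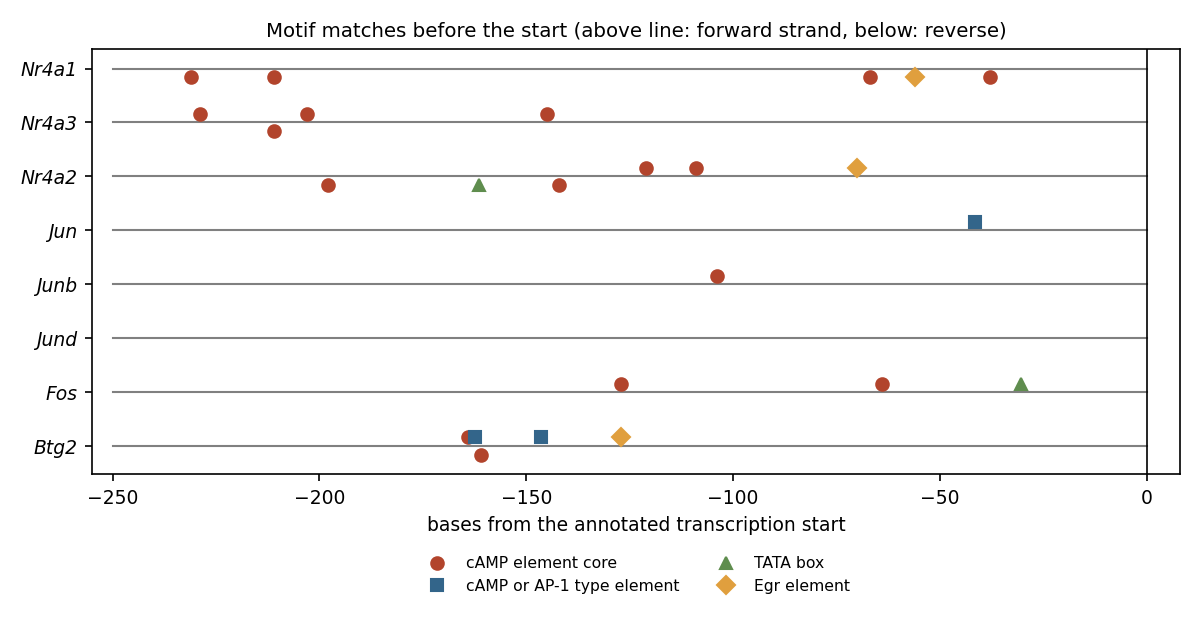
Positions of motif matches in the 250 bases before the annotated start (x axis, bases from the start) of 7 members and of Nr4a2; symbols above a line are on the forward strand and below it on the reverse. Nr4a1, Nr4a3 and Nr4a2 each show 4 matches to the core of the cAMP element (TGACG), Jun none and Jund none.

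The deposited values are RPKM, read counts scaled to gene length and library total and so a level per length, from about 54370188 to 69693884 reads per library, as recovered from the values. The 10 markers of the muscle fibre summed to between 156650 and 173890 RPKM in KO libraries and between 137330 and 158140 in WT libraries, none was called, and no adipocyte or neutrophil marker had a row. WT replicate 2 stood apart: it was the highest WT library for 60.3% of the 7573 tested genes, and for all 7 members. A gene was tested if 3 or more libraries had 1 RPKM or more, by limma on log2(RPKM + 1), and it was called at an adjusted p (Benjamini-Hochberg over all tested genes) under 0.05.

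Both Nr4a receptors of the set were higher in KO muscle and Jun was lower. Of the 7 members with a row, 5 reached the filter and 3 were called, 2 higher and 1 lower in KO. Without WT replicate 2, the library that stood apart, 4 were called, with Btg2 added, in a fit that called 14.2% of all tested genes. The filter there was still that of all 6 libraries, which Btg2 passed only with WT replicate 2. In the fit of all 6 libraries 17.3% of all tested genes were called, 3.83% as higher and 13.5% as lower. That split depends on scaling: 290 genes were called higher and 1021 lower, but 602 higher and 665 lower once the library medians were made equal, which moved the median log2 fold change to 0.01, against -0.09 as deposited. With equal medians the same 3 members were called on the same sides, at 0.79 for Nr4a1, 0.83 for Nr4a3 and -0.56 for Jun. Nr4a3 reached the filter only through its KO libraries and Btg2 only through its WT libraries, and Junb and Fos did not reach it. The KO and WT libraries did not overlap for 5 of the 7 members: KO lay above WT for Nr4a1 and Nr4a3, as for 9.22% of tested genes, and below it for Jun, Junb and Btg2, as for 30.0%. In bulk muscle, fewer cells of a type and less RNA per cell cannot be told apart.

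**Figure D2:**
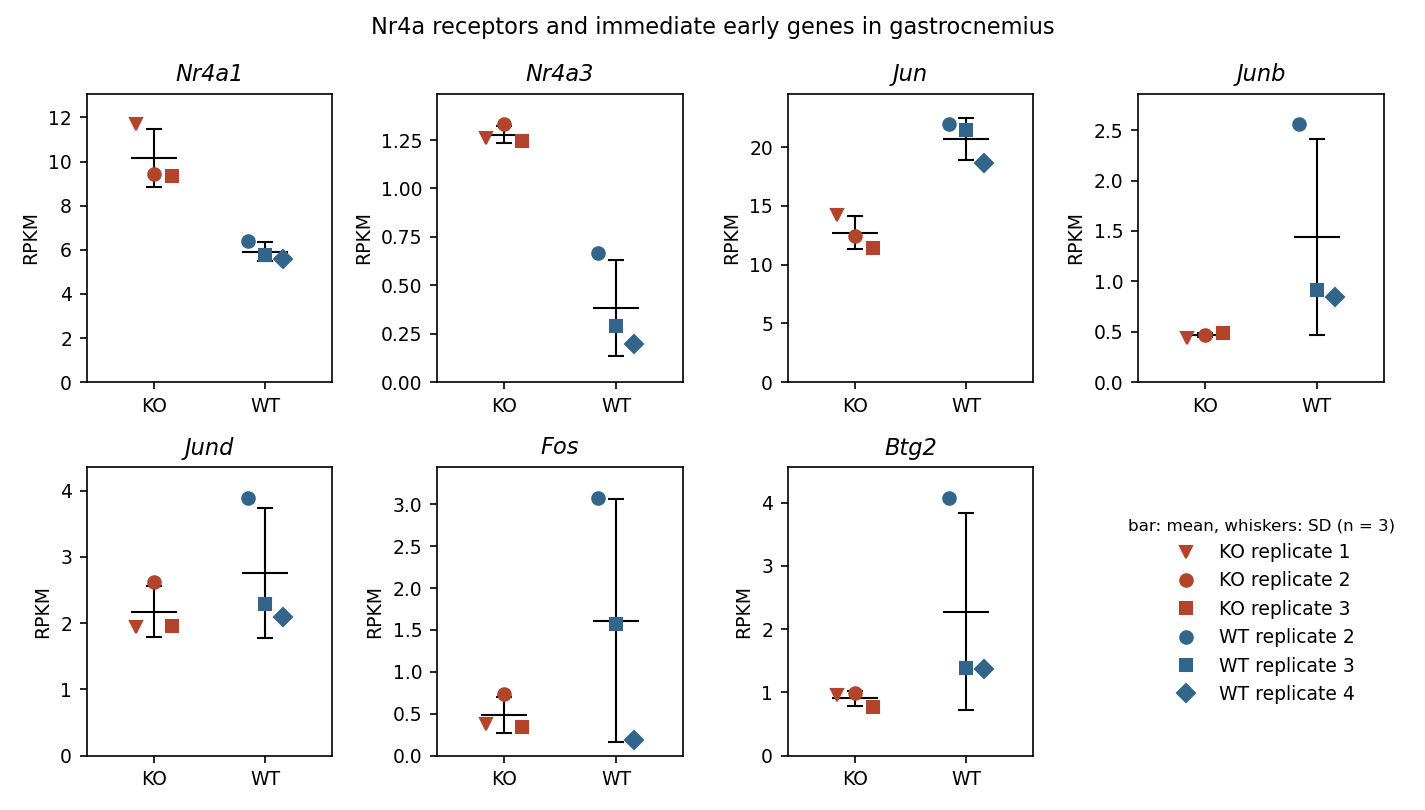
RPKM (y axis, from 0) of the 7 members in each of 3 KO and 3 WT libraries; symbols mark the replicate, bars the mean and whiskers the SD. All KO libraries lie above all WT libraries for Nr4a1 and Nr4a3 and below them for Jun, Junb and Btg2, and WT replicate 2 is the highest WT library in each panel.

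Nr4a1, which in mouse muscle drives genes of glucose use, stood at 11.7, 9.46 and 9.36 RPKM in KO replicates 1, 2 and 3, against 6.40, 5.78 and 5.57 RPKM in WT replicates 2, 3 and 4. Every KO library lay above every WT library, and both groups were narrow. The means were 10.2 ± 1.31 RPKM in KO and 5.91 ± 0.431 in WT (SD, n = 3 each). In limma the log2 fold change was 0.69 with an SE of 0.10 and an adjusted p of 0.00593. These values rest on 1301 to 1986 reads per KO library and 777 to 1103 per WT library. It stayed called in every alternative tried, with an adjusted p of 0.00370 to 0.0264. In the authors' deposited table Nr4a1 had a log2 fold change of 0.73 and a false discovery rate of 0.0383, the only member below 0.05 there.

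Nr4a3 was far rarer in both genotypes. It stood at 1.26, 1.33 and 1.24 RPKM in the KO libraries, against 0.666, 0.289 and 0.199 RPKM in WT replicates 2, 3 and 4. The KO libraries were nearly equal, while the highest WT library stood at 3.35 times the lowest. The means were 1.28 ± 0.0462 RPKM in KO and 0.385 ± 0.248 in WT (SD, n = 3 each), and their ratio was 3.32. Without WT replicate 2 the WT mean was 0.244 RPKM and the ratio 5.24. On the log2(RPKM + 1) scale, which understates changes of low genes, the fold change was 0.73 (SE 0.11, adjusted p = 0.00655 in limma). It was 1.63 with a pseudocount of 0.1 and 1.89 in limma-voom on the recovered reads, which numbered 443 to 519 in KO libraries and 78 to 278 in WT libraries. Nr4a3 passed the filter only through its KO libraries. With no filter on low values the log2 fold change was again 0.73 (adjusted p = 0.00605 in limma). The authors' deposited table gives Nr4a3 a log2 fold change of 1.37 with a false discovery rate of 0.108.

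The remaining receptor of the family, Nr4a2 (Nurr1), is no member of the set and lay on the other side. It had 0.122, 0.195 and 0.0806 RPKM in the KO libraries, against 0.873, 0.571 and 0.583 in WT replicates 2, 3 and 4. All its KO libraries lay below all its WT libraries. It was below the filter; with no filter on low values, a fit in which 15.6% of 11814 genes were called, its log2 fold change was -0.56 (SE 0.07, adjusted p = 0.00354 in limma). The reads numbered 20 to 44 in KO libraries and 126 to 247 in WT libraries, and limma-voom gave -2.42 (adjusted p = 0.00286). In the authors' deposited table its log2 fold change was -2.02 with a false discovery rate of 0.00981. Within a library, Nr4a2 stood at 0.00861 to 0.0206 of the RPKM of Nr4a1 in KO and at 0.0988 to 0.136 of it in WT, a ratio that no scaling between libraries can move.

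Jun, the most abundant member per length, fell. It stood at 14.2, 12.5 and 11.4 RPKM in the KO libraries, against 21.9, 21.5 and 18.6 RPKM in WT replicates 2, 3 and 4. The groups were apart, with the highest KO library, replicate 1, below the lowest WT library, replicate 4. The means were 12.7 ± 1.41 RPKM in KO and 20.7 ± 1.79 in WT (SD, n = 3 each). In limma the log2 fold change was -0.66 with an SE of 0.10 and an adjusted p of 0.00665. It rests on 2210 to 3119 reads per KO library and 3728 to 4877 per WT library. Jun remained called in every alternative tried, with an adjusted p of 0.00316 to 0.0356. The authors' deposited table has a smaller log2 fold change for it, -0.40, with a false discovery rate of 0.105. Its values come from a fit that is not described. The antisense gene Junos shares 232 of 3189 exonic bases with Jun, so without strand their reads there cannot be told apart. Junos itself had 0.375 to 0.428 RPKM in KO and 0.445 to 0.599 in WT.

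The ratio of Jun to Nr4a1 within a library does not depend on scaling between libraries. It is made of the values given above and adds no further test of them. Jun stood at 1.22, 1.32 and 1.22 times the RPKM of Nr4a1 in KO replicates 1, 2 and 3, and at 3.43, 3.72 and 3.35 times in WT replicates 2, 3 and 4. This ratio was chosen after the values were seen. It varied little within a genotype, WT replicate 2 included.

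**Figure D3:**
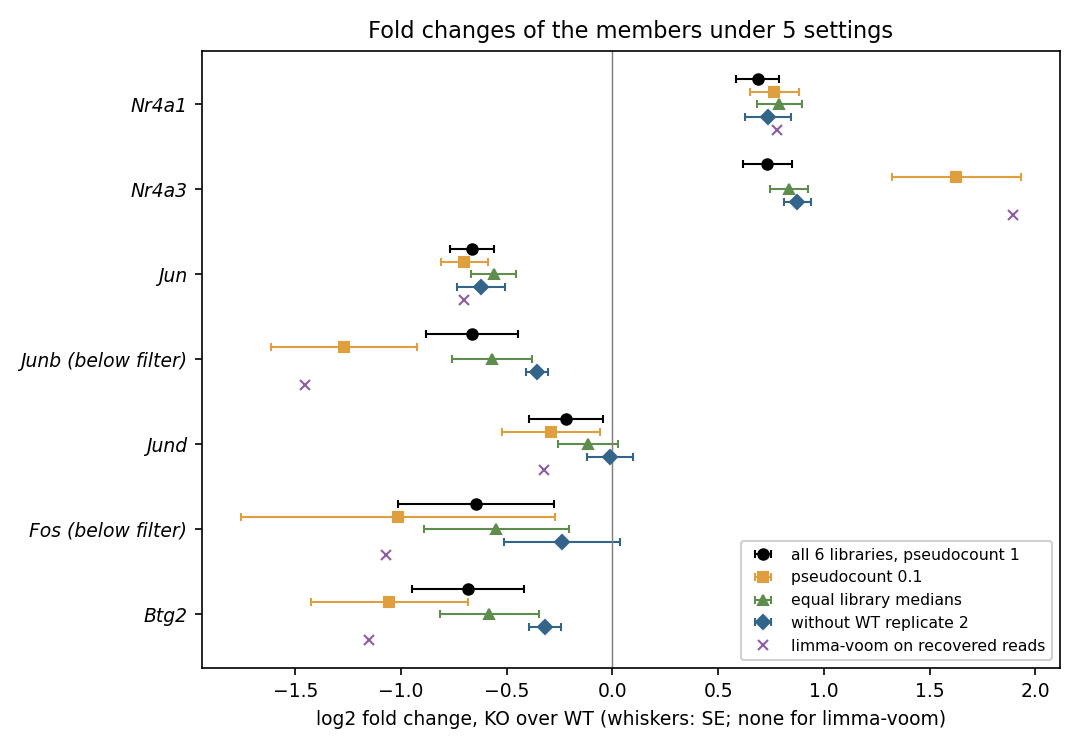
log2 fold change of KO over WT (x axis; whiskers are SE, not shown for limma-voom) for the 7 members under 5 settings. Nr4a1, Nr4a3 and Jun keep their side of 0 in all 5, and the values of Junb, Jund, Fos and Btg2 shrink towards 0 without WT replicate 2.

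Junb, a Jun protein that helps to keep fibre mass in mouse muscle, was low. It had 0.443, 0.469 and 0.483 RPKM in the KO libraries, against 2.56, 0.911 and 0.842 RPKM in WT replicates 2, 3 and 4. The KO libraries were almost level and all below WT, and WT replicate 2 stood far above the other WT libraries. With no filter its log2 fold change was -0.66 (SE 0.22, adjusted p = 0.0722 in limma). Without WT replicate 2 it was -0.36 with an adjusted p of 0.00574, and without WT replicate 4 it was -0.83 with 0.0374. The call was also reached with a pseudocount of 0.1 (-1.27, adjusted p = 0.0400). Junb was not called with equal library medians (adjusted p = 0.0776 in limma), nor without WT replicate 3 (0.0739). Without KO replicate 1, 2 or 3 it was not called either (0.172, 0.147 and 0.170), nor in limma-voom (0.0539). In the authors' deposited table its log2 fold change was -1.27 with a false discovery rate of 0.0999. Junb had 60 to 70 reads in KO libraries and 114 to 410 in WT libraries. Its annotated exons share 173 of 2301 bases with the antioxidant gene Prdx2 on the other strand, which stood at 3.28 to 3.80 RPKM in KO and 3.74 to 4.30 in WT.

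Jund, the Jun protein that most cells express without a stimulus, did not pass. It stood at 1.94, 2.62 and 1.96 RPKM in the KO libraries, against 3.89, 2.29 and 2.09 RPKM in WT replicates 2, 3 and 4. The groups overlapped and only WT replicate 2 stood outside the range of the rest. Its log2 fold change was -0.22 (SE 0.17, adjusted p = 0.411 in limma), and -0.01 without WT replicate 2. The antisense gene Gm11175, itself 877 bases long, covers 877 of the 1668 exonic bases of Jund. Without strand, reads of Gm11175 and of Jund there cannot be told apart, so its values may be those of the same reads. Gm11175 was highest in WT replicate 2, at 4.86 RPKM, with 2.50 to 2.99 in KO and 2.54 and 2.66 in the other WT libraries.

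Fos, the usual partner of Jun proteins in AP-1, varied more within each genotype than the other 6 members. It had 0.384, 0.734 and 0.348 RPKM in the KO libraries, against 3.07, 1.57 and 0.182 RPKM in WT replicates 2, 3 and 4. The highest WT library stood at 16.9 times the lowest, which was below all KO libraries. With no filter the log2 fold change was -0.65 (SE 0.37, adjusted p = 0.260 in limma). It was -0.24 without WT replicate 2, and without WT replicate 4 it was -1.13 and called (adjusted p = 0.00936). The lowest value, in WT replicate 4, was 28 reads, and the highest, in WT replicate 2, was 504.

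Btg2, which slows cell division and brings the CCR4-NOT deadenylase to mRNA, was lower in all KO libraries but not called. It had 0.960, 0.997 and 0.775 RPKM in the KO libraries, against 4.07, 1.39 and 1.37 RPKM in WT replicates 2, 3 and 4. The lowest WT library stood above the highest KO library, and WT replicate 2 was far above both. Its log2 fold change was -0.68 (SE 0.27, adjusted p = 0.114 in limma). Without WT replicate 2 it was smaller, -0.32, but called (adjusted p = 0.0304 in limma), although Btg2 passed the filter only with that library. Tob1, a relative of Btg2 that binds the same deadenylase, rose in the KO libraries to 20.3, 18.3 and 18.2 RPKM, against 9.99, 11.4 and 11.5 in WT replicates 2, 3 and 4 (log2 fold change 0.74, adjusted p = 0.00266). Of 10 tested genes of the Btg, Tob and deadenylase list it was the only one called (10%), beside a list median of -0.15 and a median of -0.09 over all tested genes. With no filter Btg3, another relative of Btg2, was called too and was lower: it had 0.657, 0.325 and 0.409 RPKM in the KO libraries, against 1.28, 1.07 and 0.933 in WT replicates 2, 3 and 4 (log2 fold change -0.52, adjusted p = 0.0107 in limma).

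By mean level per length, the order in KO muscle was Jun (12.7 RPKM), Nr4a1 (10.2), Jund (2.17), Nr4a3 (1.28), Btg2 (0.911), Fos (0.488) and Junb (0.465). In WT muscle it was Jun (20.7 RPKM), Nr4a1 (5.91), Jund (2.76), Btg2 (2.28), Fos (1.61), Junb (1.44) and Nr4a3 (0.385). The WT means of the low members rest on WT replicate 2: without it they were 1.38 RPKM for Btg2, 0.877 for Fos, 0.877 for Junb and 0.244 for Nr4a3. Fos and Junb were then level, and without WT replicate 3 Junb (1.70) stood above Fos (1.63). Nr4a3 was thus above Btg2, Fos and Junb in KO and below all of them by its mean in WT. The ranges of Jun and Nr4a1 overlapped in KO, where the lowest Jun library had 11.4 RPKM and the highest Nr4a1 library 11.7, and were apart in WT. Fos and Junb also overlapped in KO. In WT, Jund, Btg2, Fos and Junb overlapped each other, and Nr4a3 overlapped Fos.

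Of 40 other immediate early genes on the list 31 had a row and 20 were tested; 4 fell and none rose. That is 20% called, close to the 17.3% over all tested genes, and 65% had a log2 fold change below 0, beside 67.6% of all tested genes. At an unadjusted p under 0.05, 8 were lower (40%, beside 25.8% of all tested genes) and 2 higher (10%, beside 7.59%). The median log2 fold change was -0.17, beside -0.09 over all tested genes. In limma-voom on genes of at least 60 reads, 8 of 31 were called (25.8%), in a fit that called 17.1% of 11724 genes. The 4 were Ppp1r15a, the phosphatase subunit that restarts translation after stress (-1.56), Gadd45b (-1.09) and Gadd45g (-0.73), stress-response genes, and Cyr61, a matricellular protein (-0.98). The number called ranged from 1 (without KO replicate 3) to 6 (without WT replicate 4) when 1 library was left out. Cyr61 had 1.49, 1.43 and 1.47 RPKM in the KO libraries, against 4.01, 4.75 and 2.99 in WT replicates 2, 3 and 4, and was called in every alternative in which it was tested. Ppp1r15a, Gadd45g and Gadd45b each lost their call without KO replicate 3 or WT replicate 3, with adjusted p of up to 0.0605, 0.0862 and 0.148. Gadd45b lost it also with equal library medians and in limma-voom. With no filter, the Fos relative Fosl2 was called as lower (-0.25, adjusted p = 0.0474) and the stress gene Phlda1 as higher (0.33, adjusted p = 0.0413). Both were low, with at most 0.628 RPKM for Fosl2 and 1.10 for Phlda1.

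**Figure D4:**
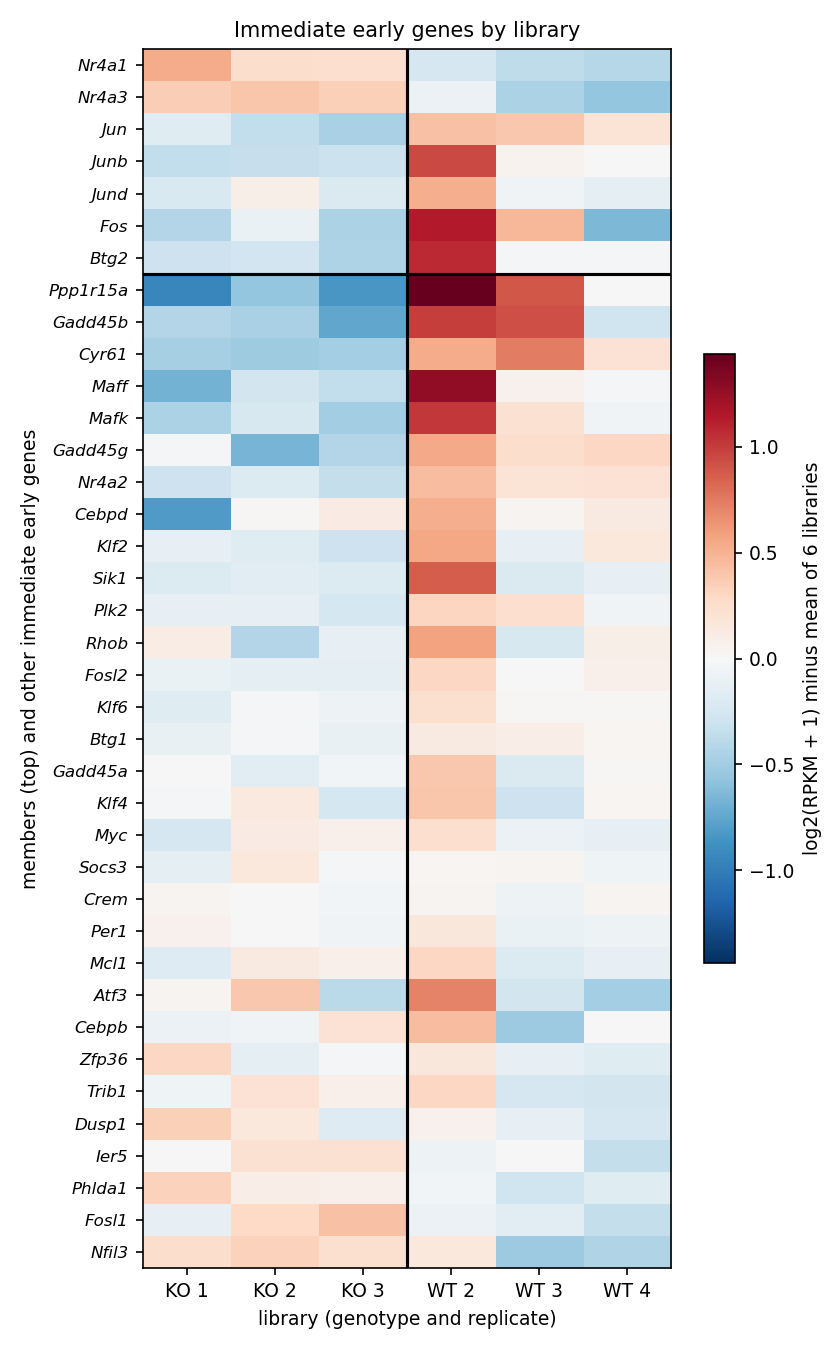
log2(RPKM + 1) minus the mean of the 6 libraries (colour) for the 7 members (above the line) and 31 other immediate early genes (rows), with 3 KO columns left and 3 WT columns right. WT replicate 2 is the highest column for Junb, Fos, Btg2, Ppp1r15a and Maff, while Nr4a1 and Nr4a3 are red in the KO columns.

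WT replicate 2 was the highest of all 6 libraries for 5 of 7 members, for 22 of 31 other immediate early genes and for 46.9% of tested genes. The 31 genes summed to 189.9, 180.0 and 179.7 RPKM in KO replicates 1, 2 and 3, against 364, 256 and 228 RPKM in WT replicates 2, 3 and 4. Gadd45g and Ppp1r15a, the most abundant of them, carry much of that difference. Without this pair, a choice made after the values were seen, the other 29 summed to 97.7, 109.4 and 104.3 RPKM in KO, against 155.3, 99.6 and 99.5 RPKM in WT, so that only WT replicate 2 stood apart. Markers of endothelium, of which 11 of 11 had a row, summed to 26.6 to 29.0 RPKM in KO, against 45.8, 30.5 and 30.1 in WT replicates 2, 3 and 4. Among 9 tested ones 1 was called, Cldn5, as lower. All 6 Schwann cell markers had a row, and they summed to 7.14 to 9.86 RPKM in KO and 31.2 to 49.7 in WT, with 4 of 4 tested ones lower. Within WT that sum was lowest in WT replicate 2. Macrophage markers (4 of 8 with a row) summed to 4.54 to 7.75 RPKM in KO and 3.50 to 7.76 in WT, and smooth muscle and pericyte markers (8 of 9) to 72.4 to 90.8 in KO and 65.1 to 106 in WT. Stromal progenitor markers (8 of 8) summed to 58.3 to 73.2 RPKM in KO and 41.0 to 73.6 in WT. Of 6 tested ones 2 were higher, Col3a1 and Smoc2. Both lost their call when any 1 library other than WT replicate 2 was left out (adjusted p of up to 0.107 and 0.137). Without WT replicate 2, 4 of the 6 were called. Red blood cell markers (5 of 5) summed to 18.3 to 110 in KO and 25.5 to 44.5 in WT. The called shares were 11.1% for endothelium, 100% for Schwann cells and 33.3% for stromal progenitors, beside 17.3% of all tested genes. No marker with a row was at 0 in all libraries. The part of these cells, and of the library, in the members' values was not tested.

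The counts for partners and upstream genes are read against the 17.3% called over all tested genes. Of 14 tested leucine zipper partners of Jun and Fos, 2 rose and 1 fell (21.4% called, median log2 fold change -0.13). Maf (0.72) and Mafa (0.68), both large Maf factors, rose. Atf6 (-0.28), a factor of the unfolded protein response, fell, and its call ended in 8 alternatives, with an adjusted p of up to 0.164. Of 27 tested kinases and factors on the calcium, cAMP, MAP kinase and SRF routes, 2 rose and 4 fell (22.2% called, median -0.02). Both shares are near that of all tested genes. Camk2a (0.53) and Camk2b (0.33), calmodulin-dependent kinase genes, rose, and Elk4 (-0.51), a partner of SRF, and Mef2d (-0.41), a factor that activates Nr4a1, fell. None of the 6 was called without KO replicate 3, with adjusted p over all alternatives of up to 0.0574 for Camk2a, 0.0984 for Camk2b, 0.0719 for Elk4 and 0.0962 for Mef2d. Of 12 tested orphan receptors and cofactors, 2 rose and 3 fell (41.7% called, median -0.07), and 3 to 5 were called when 1 library was left out. Rxrg, a retinoid receptor of a family that pairs with Nr4a1, had 12.5, 12.4 and 13.2 RPKM in the KO libraries, against 6.77, 6.58 and 7.54 in WT replicates 2, 3 and 4 (log2 fold change 0.78, adjusted p = 0.00160 in limma). The glucocorticoid receptor Nr3c1 (0.53) rose as well, and the clock-linked receptor Nr1d1 (-0.55) fell. The call of Nr3c1 ended without KO replicate 3 (adjusted p = 0.0545).

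Genes reported to respond to Nr4a1 or Nr4a3 in rodent muscle, a list compiled from general knowledge, went both ways. Of 14 tested, 3 rose and 2 fell (35.7%, beside 17.3% of all tested genes), with a median log2 fold change of 0.07, beside -0.09 over all tested genes. Without KO replicate 1, or without KO replicate 3, 1 of the 14 was called. Prkag3, a muscle AMPK subunit (0.85), Ucp3, a mitochondrial uncoupling protein (0.77), and Pgam2, a glycolytic mutase (0.57), rose, and Fbp2, the muscle fructose bisphosphatase (-0.73), and Hif1a (-0.41), the oxygen-responsive factor, fell. Fbp2 was called in every alternative. Without KO replicate 1 or 3 the other 4 calls ended, with adjusted p of up to 0.110 for Prkag3, 0.0759 for Ucp3, 0.156 for Pgam2 and 0.153 for Hif1a.

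Genes whose pattern was most like that of a called member were taken by Pearson's r of log2(RPKM + 1) over the same 6 libraries, as a description in which all genes share library depth and genotype. Nearest to Nr4a1 were Rftn1 (r = 0.993), 1110018N20Rik (0.989) and Commd9 (0.983). Nearest to Nr4a3 were Mast2 (r = 0.995), Optn (0.993) and Hoxc5 (0.990). Nearest to Jun were Tnrc18 (r = 0.999), Ginm1 (0.998) and H2-K2 (0.995). Tnrc18 had 1.24, 1.06 and 0.912 RPKM in the KO libraries, against 1.90, 1.87 and 1.61 in WT replicates 2, 3 and 4, the same order of libraries as Jun. No other member was among these genes.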

How the data were processed

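Gastrocnemius RNA of 3 KO and 3 WT libraries was fragmented and copied with random primers, as the labels' protocols have it. The build GRCm39 is named in the submitters' processing notes; for aligner, counting program, annotation and use of strand: not given in the sources used here. The authors deposited RPKM per gene and library (inferred from the values, as the header names no unit), with their own log2 fold change, log2 CPM, F score, p-value and FDR, named per the file headers. Their log2 fold changes differed from those of the mean RPKM by no constant: by 0.14 at the median of all genes, but by -0.37 for Nr4a3, -0.06 for Nr4a1, 0.31 for Jun and 0.44 for Fos, and the fit behind them is not described. A symbol that occurs 2 times was kept once, and 0 columns of unmapped samples were present.

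Reads and library totals were recovered by multiplying RPKM by exon length (GENCODE M21, or a length inferred from the values) and a total. Of genes with an annotated length 79.7% came out whole, within 0.02 of a read, in all 6 libraries; lengths fitted to the values, as for Nr4a1, raised this to 99.2% of all genes. The totals are estimates. They give depth and counting precision, and they served as library sizes in limma-voom. Between libraries of a group the counts differed beyond sampling noise, the lowest ratio of chi-square to its degrees of freedom being 9.85.

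Values of log2(RPKM + 1) of 7573 genes (1 RPKM or more in 3 or more libraries) went into limma-trend (R 4.3.3, limma 3.58.1), which modelled genotype alone and was first tested on simulated data. Members and lists were chosen with earlier results of these data known. All members are named; of other lists, the called genes with the largest changes (up to 4), plus Nr4a2, Btg3, Fosl2, Phlda1, Hif1a and overlapping genes, chosen after their values were seen. A called gene of the receptor and cofactor list is not reported here. Alternatives were a pseudocount of 0.1, no filter, a filter of 5 RPKM, equal library medians, each replicate left out and a replicate block. Fits with 1 replicate left out kept the 7573 genes of the filter on all 6 libraries, or no filter for members below it. Added after the data were seen was limma-voom on recovered reads, for tested genes or for genes of at least 60 reads in all. Overlaps of exons were taken from GENCODE M21 (GRCm38). Python 3.11.15, pandas 2.3.3, numpy 2.4.6 and matplotlib 3.10.9 did the rest.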

Additional observations from a re-analysis of the deposited data

How the results depend on the processing

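Nr4a1, Nr4a3 and Jun kept their direction and their call in all alternatives in which they were tested, and no member changed direction in any. Nr4a3 reached 1 RPKM in its KO libraries alone. The fits without a KO library kept it only because the filter was that of all 6 libraries. Of 5 tested members 3 were called, and 3 to 4 when 1 library was left out. The filter of 5 RPKM left 2 members to test, and both were called. Of all tested genes, 17.3% were called in the main fit and 6.22% to 21.6% when 1 library was left out. The filter of 5 RPKM gave 17.1%. The count of all called genes, 1311, was 539 with a filter of 5 RPKM, under which 3145 genes were tested, and 2003 in limma-voom on genes of at least 60 reads, for which 11724 were tested. Leaving out 1 library gave 471 (without KO replicate 3) to 1637 (without WT replicate 4). With equal library medians 1267 genes were called, 47.5% of them higher in KO, beside 22.1% of the 1311. With replicate number as a replicate block, KO replicate 1 and WT replicate 4 share their number with no other library. They then do not enter the genotype estimate, which rests on replicates 2 and 3 of each group. The block leaves 1 residual degree of freedom, so its p-values rest largely on variance that limma shares among genes. In that fit 1548 genes (20.4% of all tested) and 4 of 5 tested members were called, Btg2 being added (log2 fold change -0.89, adjusted p = 0.0334 in limma). With no filter, Junb (adjusted p = 0.0202 in limma) and Fos (adjusted p = 0.000611) passed too. The Fos call thus leaves out WT replicate 4, its lowest library, at 0.182 RPKM. The groups share only numbers 2 and 3 and no batch is given in the labels, so the numbers were not taken as pairs. Libraries of equal number deviated together, with r of 0.48 for number 2 and 0.27 for number 3. KO replicate 1 and WT replicate 4, of unlike numbers, also did (r = 0.43). Whether libraries of equal number are linked was not tested. Depth sets the precision of the lowest values, such as the 28 reads of Fos in WT replicate 4. Outlier checks were not made, since groups of 3 are too small.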
